A study of Homo sapiens with 6 samples.

Results

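The miR-148 and miR-152 family was examined in the small RNA of extracellular vesicles (EVs) as its 3 guide strands, hsa-miR-148a-3p, hsa-miR-148b-3p and hsa-miR-152-3p. They were taken by name from a table of 832 miRNAs. Earlier results of these data were known when the members and the lists below were chosen. All 3 members were present and passed the filter on low counts that left 517 miRNAs for testing. The EVs came from MDA-MB-231, a human triple-negative breast cancer line that the labels describe as epithelial and wild type (231 EV, n = 3), and from the same line with ACO1 knockdown (231/ACO1 KD EV, n = 3), called control and knockdown EVs from here on. ACO1 is cytosolic aconitase, which binds RNA when iron is low, and the study examined it for a part in the secretion of miR-33a into EVs. Both groups were grown with serum, placed in EV-free medium for collection, and their EVs were pelleted by ultracentrifugation. The construct behind the ACO1 knockdown, the number of clones and the vector carried by the controls are not given in the sources used here. The libraries do not measure ACO1 mRNA, so the knockdown itself was not examined. Whether replicates were separate cultures is not given in the labels, so p-values speak for these libraries only and not for separate cultures. Those of edgeR rest on a spread fitted over all miRNAs, not on each miRNA's own spread between replicates. The libraries held 157322 to 230562 counted reads, except 231/ACO1 KD EV replicate 2 with 67873. In a pool of EVs, fewer vesicles that carry a miRNA and fewer copies per vesicle cannot be told apart.

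A miRNA guides Argonaute proteins to messenger RNAs by pairing through its seed, a short stretch near its 5′ end, and miRNAs with the same seed share many predicted targets. The best-known target of this family is DNMT1, the maintenance DNA methyltransferase that copies methylation marks onto newly made DNA, and miR-148 has also been tied to DNMT3B. The hairpin genes of the family are in turn often silenced by promoter methylation in tumours, breast cancer among them. Guide strands of a hairpin are loaded into Argonaute and persist, whereas the opposite arm is mostly degraded.

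The mature guide strands are shown because they carry the family's common seed and the few bases by which its members can be told apart. Capitals mark the seed, bases 2 to 8 counted from the 5′ end, and the sequences are those of RefSeq (GRCh38.p14).
hsa-miR-148a-3p: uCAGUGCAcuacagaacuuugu
hsa-miR-148b-3p: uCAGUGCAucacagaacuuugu
hsa-miR-152-3p: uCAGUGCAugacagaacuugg
Of the 782 miRBase names in the table, 715 were matched to a RefSeq mature sequence, and the 3 members were the only ones among these with the seed CAGUGCA (0.42%). Between hsa-miR-148a-3p and hsa-miR-148b-3p, 2 of 22 bases differed, C9U and U10C, where the first base is that of hsa-miR-148a-3p and positions count from the 5′ end. From hsa-miR-148b-3p to hsa-miR-152-3p the changes were C10G and U20G, over 21 bases compared, and hsa-miR-152-3p is shorter by 1 base. The members can therefore be separated only by the middle and the 3′ end of a read, and how many mismatches the authors allowed when they matched reads to miRBase is not given in the sources used here. CAUUGC, the letters the study mutated in miR-33a to examine ACO1 binding, were searched in the mature strands as written. They were in 7 of the 715 sequences (0.979%), and the shorter CAUUG in 21 (2.94%). Neither was in any of the 3 members, which says only that these letters are not in these strands.

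The hairpins show where the guide lies, with the mature guide strand in capitals in the 3′ arm of each. Their genes are on 3 chromosomes of GRCh38, and coordinates count from 1.
MIR148A: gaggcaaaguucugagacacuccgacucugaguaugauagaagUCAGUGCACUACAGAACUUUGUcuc
MIR148B: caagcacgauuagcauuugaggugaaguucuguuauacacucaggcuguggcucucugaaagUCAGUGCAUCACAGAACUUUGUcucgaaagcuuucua
MIR152: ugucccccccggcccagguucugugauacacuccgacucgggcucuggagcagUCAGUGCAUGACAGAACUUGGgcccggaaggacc
MIR148A (ENSG00000199085.3) is on the minus strand of chromosome 7 from 25949919 to 25949986, inside no other annotated gene and 202297 bases from the nearest protein-coding gene, NFE2L3. MIR148B (ENSG00000199122.3) is on the plus strand of chromosome 12 from 54337216 to 54337314, in intron 1 of COPZ1 and on its strand, where the annotation also has the overlapping transcript AC078778.2. MIR152 (ENSG00000207947.3) is on the minus strand of chromosome 17 from 48037161 to 48037247, in intron 1 of COPZ2 and on its strand. COPZ1 and COPZ2 are paralogues that encode zeta subunits of the COPI coat of Golgi vesicles, so 2 of the 3 hairpins lie in related host genes. Host transcripts are not measured in these libraries.

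The 3 guide strands lay at very different levels and kept the same order in each of the 6 libraries. Levels are deposited TPM, here each miRNA's share of the reads counted in its library, with no length term, where 1 read was worth 4.34 to 14.7 TPM. The strands are of nearly equal length. hsa-miR-148a-3p was the most abundant member, with 3881, 3574 and 3542 TPM in control replicates 1, 2 and 3. In knockdown replicates 1, 2 and 3 it had 3780, 3845 and 3801 TPM. All 6 libraries lay within a narrow band, and the groups overlapped. hsa-miR-148b-3p had 2085, 1930 and 1618 TPM in control EVs and 2461, 2166 and 2174 TPM in knockdown EVs. Each knockdown library was above each control library on this scale, although 231 EV replicate 1 and 231/ACO1 KD EV replicate 2 were close. hsa-miR-152-3p, the scarce member, had 138, 160 and 93.3 TPM in control EVs and 222, 383 and 172 TPM in knockdown EVs. The groups again did not overlap, and the highest value by far was that of 231/ACO1 KD EV replicate 2, the shallowest library. Of the 517 tested miRNAs, 22.6% were higher in each knockdown library than in each control library in TPM, and 5.8% lower, so such a separation was common in the table.

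In counted reads, hsa-miR-148a-3p had 873, 824 and 797 in control EVs and 665, 261 and 598 in knockdown EVs, and hsa-miR-148b-3p had 469, 445 and 364 against 433, 147 and 342. hsa-miR-152-3p rested on 31, 37 and 21 reads in control EVs and 39, 26 and 27 reads in knockdown EVs. Its value of 383 TPM in 231/ACO1 KD EV replicate 2 had a 95% Wilson interval of 261 to 561 TPM, against 118 to 250 TPM in 231/ACO1 KD EV replicate 3. These intervals cover counting error only. For hsa-miR-148a-3p the interval in the same shallow library was 3407 to 4340 TPM, which contains the TPM of the other 5 libraries.

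Among all 832 miRNAs, hsa-miR-148a-3p ranked 33, 34 and 34 in the control libraries and 41, 41 and 39 in the knockdown libraries. hsa-miR-148b-3p ranked 50, 52 and 56 against 52, 56 and 53. hsa-miR-152-3p ranked 164, 155 and 188 against 138, 112 and 164, where the groups overlapped, since 231/ACO1 KD EV replicate 3 stood below 231 EV replicate 2 in the order. By mean TPM over the 6 libraries the members ranked 40, 54 and 150. The miRNAs next to hsa-miR-148a-3p were hsa-miR-10a-5p (3847 TPM ± 703, SD over 6 libraries) above and hsa-miR-27b-3p (3697 TPM ± 673) below, against 3737 TPM ± 144 of the member. These SDs span both groups, and that of hsa-miR-10a-5p includes a fall in knockdown EVs of -0.79 on the log2 scale (edgeR, adjusted p = 2.73e-05). hsa-miR-29c-3p (3856 TPM) and hsa-miR-7-5p (3556 TPM) were the next ones out, and hsa-miR-7-5p rose by 0.50 (edgeR, adjusted p = 0.0288). hsa-miR-148b-3p (2072 TPM ± 282) stood between hsa-miR-224-5p (2136 TPM ± 693) and hsa-let-7c-5p (2053 TPM ± 398), with hsa-miR-30c-5p (2349 TPM) and hsa-let-7d-5p (1796 TPM) beyond them. hsa-miR-152-3p (195 TPM ± 101) stood between hsa-miR-345-5p (196 TPM ± 36.1) and hsa-miR-629-5p (184 TPM ± 63.5), with hsa-miR-10a-3p (203 TPM) and hsa-miR-105-5p (183 TPM) beyond them, and its spread over libraries was the widest of these 5. Of these neighbours hsa-miR-105-5p fell, by -0.94 on the log2 scale (edgeR, adjusted p = 0.0295).

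The spread between replicates also differed among members. hsa-miR-148a-3p had a coefficient of variation of TPM of 5.1% in control EVs and 0.876% in knockdown EVs. The latter is below the 4.83% that counting alone would give at its depth, and none of the 35 tested miRNAs within a factor of 2 of its level had a smaller one (median 12.3%). In control EVs 10 of these 35 had a smaller one. hsa-miR-148b-3p had 12.7% and 7.42%, and of 43 miRNAs near its level 37 and 3 had smaller ones. hsa-miR-152-3p had 26.2% and 42.7%, where counting alone at its depth would give 18.9% and 18.4%. Of 77 miRNAs near its level 53 and 63 had smaller ones.

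None of the 3 members passed an adjusted p of 0.05 between knockdown EVs and control EVs in edgeR's quasi-likelihood test with TMM scaling, and at an unadjusted p of 0.05 none passed either. TMM sets the libraries to a common scale from the bulk of miRNAs, and CPM values below are on that scale. The same test called 44 of the 517 miRNAs (8.51%) at the adjusted threshold, 31 lower (6.0%) and 13 higher (2.51%), and 97 (18.8%) had an unadjusted p under 0.05. DESeq2 called no member at either threshold and 7.93% of the table at the adjusted one, 5.03% lower and 2.9% higher. Fold changes are on the log2 scale, knockdown against control, and p-values are adjusted over all 517 miRNAs by the Benjamini-Hochberg method. Standard errors given for edgeR are the absolute log2 fold change divided by the square root of the test's F statistic. They carry the spread fitted over all miRNAs, not the SDs shown beside them.

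hsa-miR-148a-3p had 4146 CPM ± 144 (SD, n = 3) after TMM scaling in control EVs and 3368 CPM ± 140 (SD, n = 3) in knockdown EVs. Each knockdown library, from 3211 to 3482 CPM, was below each control library, from 3981 to 4242 CPM, as were those of 12.8% of tested miRNAs on this scale. On the log2 scale the difference was -0.30 with a standard error of 0.159, and edgeR gave an adjusted p of 0.284. With each library scaled by its total count it was 0.06 with the same standard error, and edgeR gave an adjusted p of 0.859, so the sign depended on the scaling.

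hsa-miR-148b-3p had 2118 CPM ± 179 (SD, n = 3) against 2007 CPM ± 207 (SD, n = 3), and the groups overlapped on the TMM scale. The log2 difference was -0.07 with a standard error of 0.174, for which edgeR gave an adjusted p of 0.892. Library totals turned it to 0.27 with a standard error of 0.175 (edgeR, adjusted p = 0.339), and the sign again followed the scaling.

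hsa-miR-152-3p had 147 CPM ± 34 (SD, n = 3) in control EVs and 226 CPM ± 84.3 (SD, n = 3) in knockdown EVs. On this scale 231/ACO1 KD EV replicate 3, at 157 CPM, was below 231 EV replicate 2, at 179 CPM. The log2 difference of 0.55, a fold of 1.46, had a standard error of 0.309, and edgeR gave an adjusted p of 0.333. Library totals brought it to 0.90 with a standard error of 0.308 (edgeR, adjusted p = 0.0314). Under that scaling 13.7% of tested miRNAs were called, 11.2% higher and 2.51% lower. This call was lost without 231/ACO1 KD EV replicate 2, at 0.59 (edgeR, adjusted p = 0.275), and no other library was left out under library totals. With TMM the log2 difference was lowest without that library, at 0.28 (edgeR, adjusted p = 0.758). It was highest without 231/ACO1 KD EV replicate 3, at 0.75 (edgeR, adjusted p = 0.102). The exact two-sided permutation test of log2(TPM + 1), with pseudocount 1, gave p = 0.4 for hsa-miR-148a-3p and p = 0.1 for each of the other members, and 3 libraries against 3 allow no p under 0.1.

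The distance between the 2 scalings came with the most abundant miRNA of these EVs. hsa-miR-21-5p took 28.5% to 31.2% of the counts in control EVs and 11.7% to 18.4% in knockdown EVs, and TMM factors were 0.84 to 0.915 in control EVs and 1.09 to 1.2 in knockdown EVs. The median log2 fold change of all tested miRNAs was -0.03 with TMM and 0.32 with library totals. Against this median hsa-miR-148a-3p was low and hsa-miR-152-3p high with either scaling. The 3 members together made up 0.61%, 0.566% and 0.525% of all counts in control EVs and 0.646%, 0.639% and 0.615% in knockdown EVs, where each knockdown library was above each control library. Of the counts other than hsa-miR-21-5p they made up 0.854%, 0.824% and 0.753% in control EVs and 0.736%, 0.724% and 0.754% in knockdown EVs. On that second base 231/ACO1 KD EV replicate 3 lay within the control range and the other 2 knockdown libraries just below it.

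**Figure D1:**
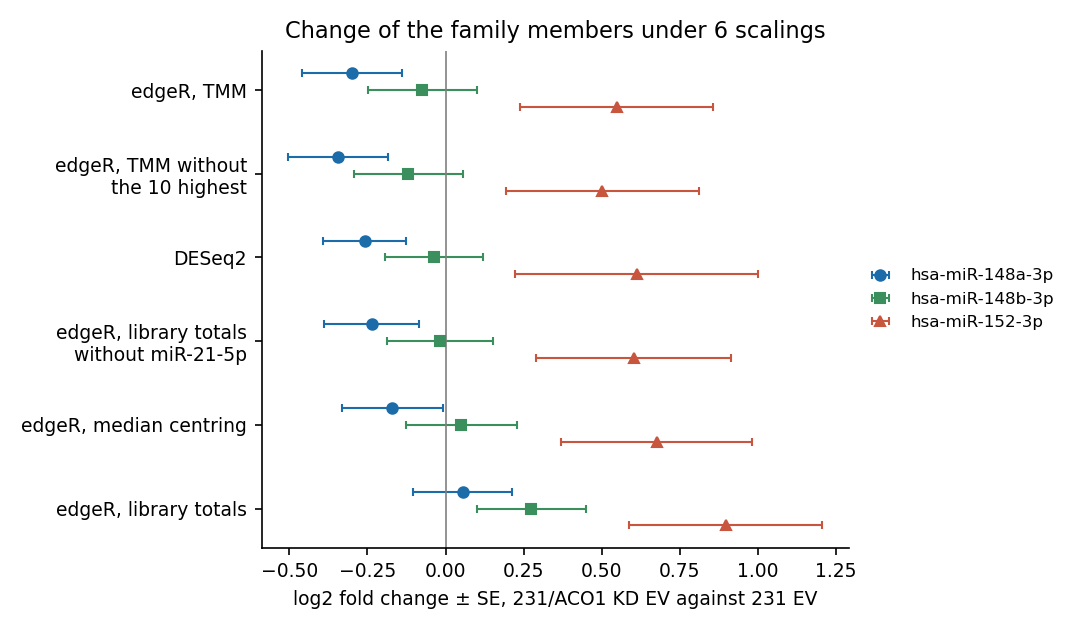
Log2 fold changes (points) with standard errors (bars) of the 3 members, knockdown EVs against control EVs, in 6 fits that differ in the tool or the scaling of libraries. The order of the members is the same in each fit, and hsa-miR-148a-3p goes from -0.34 to 0.06, hsa-miR-148b-3p from -0.12 to 0.27 and hsa-miR-152-3p from 0.50 to 0.90.

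The ratio of 2 members within a library needs no scaling factor, and it was used to compare the members with each other. For every 100 reads of hsa-miR-148a-3p there were 53.7, 54 and 45.7 reads of hsa-miR-148b-3p in control EVs and 65.1, 56.3 and 57.2 in knockdown EVs. Each knockdown library was above each control library, by a small margin. The log2 ratio of hsa-miR-148a-3p to hsa-miR-148b-3p was 0.97 ± 0.137 (SD, n = 3) in control EVs and 0.75 ± 0.114 (SD, n = 3) in knockdown EVs. The difference was -0.22 (standard error 0.103, exact permutation p = 0.1, two-sided, adjusted p = 0.15 over the 3 pairs).

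For every 100 reads of hsa-miR-148a-3p there were 3.55, 4.49 and 2.63 reads of hsa-miR-152-3p in control EVs and 5.86, 9.96 and 4.52 in knockdown EVs. The groups did not overlap, but 231/ACO1 KD EV replicate 3 and 231 EV replicate 2 were nearly equal. The log2 ratio of hsa-miR-148a-3p to hsa-miR-152-3p differed by -0.88 (standard error 0.401, exact permutation p = 0.1, two-sided, adjusted p = 0.15 over the 3 pairs). The difference was -0.56 without 231/ACO1 KD EV replicate 2, where 2 libraries against 3 allow no exact p under 0.2.

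Per 100 reads of hsa-miR-148b-3p, hsa-miR-152-3p had 6.61, 8.31 and 5.77 reads in control EVs and 9.01, 17.7 and 7.89 in knockdown EVs, where the groups overlapped. The log2 ratio of hsa-miR-148b-3p to hsa-miR-152-3p differed by -0.66 (standard error 0.391, exact permutation p = 0.2, two-sided, adjusted p = 0.2 over the 3 pairs). The difference was -0.30 without 231/ACO1 KD EV replicate 2. None of the 3 pairs could pass 0.05 in this design. A ratio to hsa-miR-148a-3p that was higher in each knockdown library than in each control library was found for 26.6% of the other 516 tested miRNAs, and a lower one for 5.62%. Against hsa-miR-148b-3p these shares were 16.1% and 8.72%, and against hsa-miR-152-3p 2.52% and 18.0%. The other members thus stood among many miRNAs whose ratio to hsa-miR-148a-3p was higher in this sense.

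The makeup of the family followed from these ratios. hsa-miR-148a-3p gave 63.6%, 63.1% and 67.4% of the family's reads in control EVs and 58.5%, 60.1% and 61.8% in knockdown EVs. hsa-miR-148b-3p gave 34.2%, 34.1% and 30.8% against 38.1%, 33.9% and 35.4%, where the groups overlapped. hsa-miR-152-3p gave 2.26%, 2.83% and 1.78% against 3.43%, 5.99% and 2.79%, where they overlapped too. The widest 95% Wilson interval of the first share, 55.5% to 64.6%, was that of 231/ACO1 KD EV replicate 2.

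The other arms of the hairpins were near the limit of detection. hsa-miR-148a-5p had 8, 3 and 3 reads in control EVs and 1, 0 and 0 reads in knockdown EVs. Each knockdown library was below each control library, as for 5.8% of tested miRNAs in TPM and 12.8% on the TMM scale. It made up 0.558% of the reads of its hairpin over the control libraries (exact 95% interval 0.306% to 0.935%) and 0.0656% over the knockdown libraries (0.00166% to 0.365%). These intervals overlap and cover counting error only, and a count of 0 allows up to 44.2 TPM in 231/ACO1 KD EV replicate 2 and 19.1 TPM in replicate 3. edgeR gave it an adjusted p of 0.121.

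hsa-miR-148b-5p had 5, 4 and 3 reads in control EVs and 0, 6 and 0 in knockdown EVs, for which edgeR gave an adjusted p of 0.904. All of its knockdown reads came from replicate 2, the shallowest library. Over all 6 libraries the 5p arm was 0.372% of the reads of MIR148A and 0.812% of those of MIR148B, so the 3p arm held nearly all reads of both hairpins in these EVs. hsa-miR-152-5p was not among the 832 miRNAs.

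The miRNAs whose pattern over the 6 libraries was nearest to each member were found by the root mean square difference of log2 CPM, each miRNA centred on its own mean, among 225 others with a mean count of at least 10. For hsa-miR-148a-3p they were hsa-miR-24-3p (0.0802), hsa-miR-103a-3p (0.0987) and hsa-miR-30a-5p (0.104). For hsa-miR-148b-3p they were hsa-let-7g-5p (0.0738), hsa-miR-29c-3p (0.0851) and hsa-miR-101-3p (0.0858). For hsa-miR-152-3p they were farther off, namely hsa-miR-574-3p (0.179), hsa-miR-15b-3p (0.273) and hsa-miR-411-5p (0.28). The members were not each other's nearest, since hsa-miR-148b-3p was in place 12 for hsa-miR-148a-3p (0.151) and hsa-miR-152-3p in place 197 (0.571). A shallow library and few reads enlarge this measure, which is a description of 6 libraries.

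The family was set beside a list of 15 miRNAs described as acting on DNA methyltransferases or on the chromatin enzymes EZH2 and HDAC1, its own members included. All 15 were tested, 1 rose, none fell and 14 did not pass, 4 of these 14 with a positive and 10 with a negative log2 fold change, in the edgeR fit with TMM, where 2.51% of all tested miRNAs rose and 6.0% fell. The list had a median of -0.06, beside -0.03 for all tested miRNAs. With library totals 6 rose and none fell, where 11.2% of all tested miRNAs rose and 2.51% fell, with a median of 0.29 beside 0.32 over all. These 6 were hsa-miR-126-3p, hsa-miR-140-5p, hsa-miR-342-3p, hsa-miR-143-3p, hsa-miR-29a-3p and hsa-miR-152-3p.

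The miRNA that rose was hsa-miR-126-3p, an endothelial miRNA that has been described as acting on DNMT1. It had 7474 TPM ± 564 (SD, n = 3) in control EVs and 13770 TPM ± 1660 (SD, n = 3) in knockdown EVs, from 1824, 1679 and 1582 reads against 2520, 1023 and 1873. The log2 difference was 0.52 with a standard error of 0.14, and edgeR gave an adjusted p of 0.00509. In edgeR the adjusted p was 0.0554 without 231 EV replicate 2 and 0.0507 without 231 EV replicate 3.

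The miR-29 family, which acts on the de novo methyltransferases DNMT3A and DNMT3B, held the most reads of the list. hsa-miR-29a-3p had 50370 TPM ± 4990 in control EVs and 63570 TPM ± 3010 in knockdown EVs (SD, n = 3), with a log2 fold change of -0.02 with TMM and 0.34 with library totals. hsa-miR-29b-3p was at -0.0084 and 0.35, and hsa-miR-29c-3p at -0.06 and 0.29, on the same scales. The sign of all 3 followed the scaling, as it did for hsa-miR-148b-3p.

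Of the other miRNAs tied to DNMT1, hsa-miR-342-3p had 1107 TPM ± 66.9 and 1701 TPM ± 140 (SD, n = 3), and stood at 0.27 with TMM (edgeR, adjusted p = 0.531) and at 0.62 with library totals (edgeR, adjusted p = 0.0135). hsa-miR-140-5p had 97.1 TPM ± 21.2 and 203 TPM ± 74 (SD, n = 3), and stood at 0.80 (edgeR, adjusted p = 0.11) and 1.14 (edgeR, adjusted p = 0.00558). Its reads were 27, 18 and 21 in controls and 44, 8 and 38 in knockdown, as few as those of hsa-miR-152-3p. hsa-miR-185-5p was at -0.24 and 0.11, with no call under either scaling.

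Among those tied to DNMT3A or EZH2, hsa-miR-143-3p, best known from smooth muscle and stroma, was at 0.18 and, with library totals, at 0.54 (edgeR, adjusted p = 0.0157). hsa-miR-101-3p was at -0.14 and 0.20, hsa-miR-26b-5p at -0.06 and 0.29, and none of these passed. hsa-miR-26a-5p was at -0.38 (edgeR, adjusted p = 0.066) and -0.03. Its TMM value was -0.24 without 231/ACO1 KD EV replicate 2 (edgeR, adjusted p = 0.411) and -0.59 without 231/ACO1 KD EV replicate 3 (edgeR, adjusted p = 9.18e-05), and it also passed as lower with edgeR's robust option (adjusted p = 0.0305) and with TMM without the 10 highest miRNAs (adjusted p = 0.0363). hsa-miR-449a, tied to HDAC1, had 3, 5 and 3 reads against 0, 2 and 2, so that a difference was not detectable at this depth.

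Markers of the line and of other cells were checked beside these values, and their calls stand beside 6.0% of all tested miRNAs called lower and 2.51% called higher. The 5 miRNAs typical of a mesenchymal-like breast line (hsa-miR-21-5p, hsa-miR-221-3p, hsa-miR-222-3p, hsa-miR-100-5p and hsa-miR-125b-5p) summed to 406600 to 427600 TPM in control EVs and 248600 to 312800 TPM in knockdown EVs, and 4 of the 5 fell. The 5 of the epithelial miR-200 group summed to 373 to 486 TPM and 368 to 470 TPM, far below the former although the labels call the cells epithelial, and none passed. The 3 leukocyte miRNAs (hsa-miR-223-3p, hsa-miR-142-3p and hsa-miR-150-5p) summed to 6564 to 7784 TPM in control EVs and 10840 to 12010 TPM in knockdown EVs, and 2 of the 3 rose. The 3 red cell miRNAs went from 2009 to 2178 TPM down to 1256 to 1634 TPM with 2 of 3 lower, and the 3 liver miRNAs from 3143 to 3309 TPM to 3350 to 4536 TPM with none called. None of these markers was at 0 throughout. In TPM the summed leukocyte markers were thus higher in knockdown EVs and the summed red cell markers lower. The sums are shares of library totals, where the median log2 fold change of tested miRNAs was 0.32, while the calls came from the TMM fit. The mesenchymal-like sum includes hsa-miR-21-5p, at 28.5% to 31.2% of counts in control EVs and 11.7% to 18.4% in knockdown EVs. The TPM of hsa-miR-148b-3p and hsa-miR-152-3p were higher in each knockdown library than in each control library, as were those of 22.6% of tested miRNAs. The same held for hsa-miR-126-3p, hsa-miR-342-3p, hsa-miR-143-3p, hsa-miR-26b-5p, hsa-miR-29a-3p, hsa-miR-29b-3p and hsa-miR-29c-3p. The other listed miRNAs, hsa-miR-148a-3p among them, overlapped between the groups. The part of other cells in these values was not tested.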

How the data were processed

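Vesicle small RNA was sequenced from wild-type and ACO1-knockdown MDA-MB-231 (3 libraries each). According to the methods, reads were quality-trimmed, other RNA classes were discarded by an Rfam search and the remainder was matched to miRBase. The authors deposited read counts per miRNA and TPM values. The submitters' processing notes name hg38, Bowtie2 and StringTie. The deposited TPM equal the count over the library total on the TPM scale, to within 4.99e-05. The members and lists were chosen with earlier results of these data known.

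The filter kept miRNAs counted in 3 or more libraries, and edgeR 4.0.16 tested them (quasi-likelihood, TMM, no covariates, R 4.3.3) with adjustment over all. The common dispersion was 0.0433 and the prior degrees of freedom infinite. The quasi-dispersion of each miRNA was thus taken from the fit over all miRNAs and not from its own spread between replicates. DESeq2 1.42.0, the tool of the study's methods, and limma 3.58.1 on log2(TPM + pseudocount) were alternatives, and scripts were tested on simulated counts. Ratios used counts plus 0.5, and exact permutation tests SciPy 1.17.1. Sequences are from RefSeq (GRCh38.p14) and genes from GENCODE 29. Named were the members, their other arms, the list on DNA methylation, markers, hsa-miR-21-5p, and for each member 3 nearest patterns and 2 rank neighbours on each side. Libraries within a group differed beyond sampling noise, so each counted once.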

Additional observations from a re-analysis of the deposited data

How the results depend on the processing

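Of the members, hsa-miR-152-3p alone changed its side of an adjusted p of 0.05. It was positive throughout and passed with library totals (0.896) and with limma at pseudocounts of 1 (0.935) and 10 (0.889), though not at 0.1 (0.939, limma, adjusted p = 0.0768). Without 1 library it was 0.284 to 0.751. hsa-miR-148a-3p was positive with library totals (0.055, and 0.0483 without 231/ACO1 KD EV replicate 2) and limma (0.0565, 0.0565 and 0.0563 at pseudocounts of 1, 0.1 and 10), and -0.324 to -0.261 without 1 library. hsa-miR-148b-3p was positive with library totals (0.274, and 0.304 without that library), median centring (0.0504) and limma (0.277, 0.277 and 0.276), and -0.145 to -0.00486 without 1 library. Limma on TPM shares the scale of library totals, while for median centring the cause was not tested. The ratios kept their direction, at -0.263 to -0.142, -1.13 to -0.562 and -0.884 to -0.303 without 1 library, in the order of the report. The few reads of hsa-miR-152-3p and of the 5p arms limit what could be detected.

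Over all tested miRNAs there were 44 calls, against 71 (13 lower, 58 higher) with library totals and 75 (16, 59) and 76 (16, 60) with limma at pseudocounts of 1 and 10. Leaving out 1 library gave 19 to 65, with 21, 29 and 19 without 231 EV replicates 1, 2 and 3. Median centring split the calls into 23 lower and 29 higher, totals without hsa-miR-21-5p (added after seeing the data, as was leaving a library out under totals) into 27 and 23, and limma at 0.1 into 12 and 45. Of the 15 listed miRNAs, 6 were called with library totals (4 without 231/ACO1 KD EV replicate 2), 2 each with median centring, TMM without the 10 highest and the robust fit, and 5, 3 and 5 with limma at 1, 0.1 and 10. Leaving out 1 library gave 0 (without 231 EV replicate 2 or 3) to 2 (without 231/ACO1 KD EV replicate 2, or replicate 3, when 1 of the 2 was lower).

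Signs also turned for list members and an other arm that were not called with TMM. With library totals hsa-miR-29a-3p, hsa-miR-29b-3p, hsa-miR-29c-3p, hsa-miR-185-5p, hsa-miR-101-3p, hsa-miR-26b-5p and hsa-miR-148b-5p were at 0.336 (called), 0.346, 0.291, 0.115, 0.204, 0.294 and 0.00129. Without 231/ACO1 KD EV replicate 2 as well, hsa-miR-29a-3p, hsa-miR-29b-3p, hsa-miR-29c-3p, hsa-miR-101-3p, hsa-miR-26a-5p and hsa-miR-26b-5p were at 0.34, 0.299, 0.315, 0.256, 0.0686 and 0.284. Limma at 1, 0.1 and 10 gave 0.339 each for hsa-miR-29a-3p, 0.355 each for hsa-miR-29b-3p, 0.293, 0.293 and 0.292 for hsa-miR-29c-3p, 0.109, 0.109 and 0.108 for hsa-miR-185-5p, 0.208, 0.208 and 0.207 for hsa-miR-101-3p, and 0.295, 0.296 and 0.295 for hsa-miR-26b-5p. Median centring gave 0.112, 0.124, 0.0659 and 0.0707 for hsa-miR-29a-3p, hsa-miR-29b-3p, hsa-miR-29c-3p and hsa-miR-26b-5p. DESeq2, a mean TPM of at least 10, and totals without hsa-miR-21-5p gave 0.0226, 0.00372 and 0.0397 for hsa-miR-29a-3p and 0.033, 0.0148 and 0.0492 for hsa-miR-29b-3p, and the last gave 0.000549 for hsa-miR-26b-5p. Without 1 library hsa-miR-29a-3p was -0.0567 to 0.0561, hsa-miR-29b-3p -0.0807 to 0.0982, hsa-miR-29c-3p -0.112 to 0.00598 and hsa-miR-148b-5p -4.99 to 0.472.

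Whether same-numbered libraries were prepared as pairs is not given in the labels. Deviations of same-numbered libraries had r of -0.0552, -0.0413 and 0.121, and those of differently numbered ones -0.13 to 0.151. Such correlations cannot decide how the libraries were prepared. With a replicate block the members were at -0.30, -0.0755 and 0.581 with no call, 44 miRNAs were called in all and 1 of the list, and each ratio gave p = 0.25, the smallest an exact sign-flip test of 3 pairs allows.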
